A study of Mus musculus with 64 samples.

Results

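The 7 ligands of the EGF family (Areg, Egf, Ereg, Epgn, Hbegf, Btc and Tgfa) and the ErbB receptors Egfr, Erbb2 and Erbb3 were followed across 8 mammary tumors of PyMT mice with and without Abi1. The 10 genes were taken by their names out of the 55381 genes of the authors' table of counts, and all 10 passed the filter on low counts that left 22187 of 55385 genes. Total RNA had been depleted of ribosomal RNA and sequenced as stranded paired-end libraries, each tumor on 4 lanes in 2 runs. All 4 mice carried the polyomavirus middle T transgene, which drives mammary tumors, and at least 1 floxed copy of Abi1 on a C57BL6/mixed strain. Abi1 encodes an adaptor protein of the WAVE complex, which acts on actin. In heterozygotes, tumors 3 and 6 of the KO mouse G164 (fl/wt with Cre) stood against tumors 6 and 8 of G144 (fl/wt without Cre). In homozygotes, tumors 1 and 6 of the KO mouse G174 (fl/fl with Cre) stood against tumors 6 and 9 of G184 (fl/fl without Cre). Cre was driven by MMTV, which is active mainly in the mammary epithelium, and the bulk tumors also hold stromal and immune cells. Whether Cre acted in those cells was not tested. Going by the study's pathology records, G174 and G144 were the younger mice and G164 and G184 the older. With 1 mouse per genotype, the error behind the p-values of the comparisons between mice is that between 2 tumors within an animal, and genotype, mouse and age cannot be told apart.

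The EGF family ligands are made as membrane-bound precursors and are released by ADAM proteases. Released ligand binds Egfr, which pairs with itself or with another ErbB receptor and signals through Ras and the ERK kinases, and Erbb2 has no known ligand of its own. In the mouse mammary gland, amphiregulin, the product of Areg, is induced by estrogen and is needed for growth of the ducts at puberty.

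Gene totals lay between 50346075 and 69264893 counts per tumor. Counts on the reverse strand were summed over lanes and runs, scaled by TMM and expressed as CPM, the counts scaled to 1e6 per tumor. Levels of different genes were compared as CPM per kb of exon. Abi1 stood at 63.1 and 66.7 CPM in G164 and at 8.93 and 6.47 CPM in G174, against 111 and 130 CPM in G144 and 114 and 122 CPM in G184. Its log2 fold change was -0.89 ± 0.16 (SE, adjusted p = 0.0362) in heterozygotes and -3.94 ± 0.18 (adjusted p = 0.000297) in homozygotes, by the quasi-likelihood test of edgeR with Benjamini-Hochberg adjustment over all genes, which is the test used throughout. The summed level of 8 luminal markers (Krt8, Krt18, Krt19, Epcam, Cdh1, Elf5, Kit and Cldn3) was 4337 to 5107 CPM, and none of the 8 was at 0 in any tumor.

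Areg was the member whose level differed between the mice most. It was 17.4 times higher in the homozygous KO mouse than in its control, and 0.36 times its control's level in the heterozygous KO mouse, without passing the threshold there. The homozygous difference depended on the control mouse used, since Areg was far lower in G184 than in the other 3 mice and the 2 mice without Cre differed from each other by as much as the homozygous pair did. Tgfa had the same signs as Areg in both comparisons with smaller values that did not pass. Btc and the receptors Egfr, Erbb2 and Erbb3 had the smallest ranges among the members, from 1.43-fold (Btc) to 1.86-fold (Egfr) between the lowest and the highest tumor.

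Areg, Epgn, Ereg and Btc lie side by side on mouse chromosome 5, over 376 kb from the start of Epgn to the end of Btc in GRCm38 with GENCODE M21 annotation. Epgn spans chr5:91027464-91035215 (+), Ereg chr5:91074622-91093646 (+), Areg chr5:91139599-91148432 (+) and Btc chr5:91357261-91402994 (-). The other ligands are Egf at chr3:129677565-129755316 (-), Tgfa at chr6:86195223-86275719 (+) and Hbegf. The receptors are Egfr at chr11:16752203-16918158 (+), Erbb2 at chr11:98412470-98437716 (+) and Erbb3 at chr10:128567523-128589652 (-). The promoters of Areg, of Tgfa, the other ligand whose 2 comparisons differed, and of Btc, the ligand of the cluster whose level varied least, are shown to set their letters beside their levels. Each is the 250 bases before the RefSeq start in GRCm38.p6, 5′ to 3′ on the strand of the gene, and capitals mark the letters TGACGTCA (the cyclic AMP response element, a palindrome) and TATAAA (a core promoter element), searched on both strands.
Areg, chr5:91139349-91139598 (+): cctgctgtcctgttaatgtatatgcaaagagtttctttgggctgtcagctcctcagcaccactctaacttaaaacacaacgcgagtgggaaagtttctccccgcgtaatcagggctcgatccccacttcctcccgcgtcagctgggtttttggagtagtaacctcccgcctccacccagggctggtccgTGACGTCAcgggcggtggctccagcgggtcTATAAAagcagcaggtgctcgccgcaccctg
Tgfa, chr6:86194972-86195221 (+): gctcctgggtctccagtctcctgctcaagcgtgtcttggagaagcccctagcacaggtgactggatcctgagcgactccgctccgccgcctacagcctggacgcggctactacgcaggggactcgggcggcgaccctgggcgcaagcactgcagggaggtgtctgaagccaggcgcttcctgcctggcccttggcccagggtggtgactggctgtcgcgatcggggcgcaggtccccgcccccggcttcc
Btc, chr5:91402995-91403244 (-): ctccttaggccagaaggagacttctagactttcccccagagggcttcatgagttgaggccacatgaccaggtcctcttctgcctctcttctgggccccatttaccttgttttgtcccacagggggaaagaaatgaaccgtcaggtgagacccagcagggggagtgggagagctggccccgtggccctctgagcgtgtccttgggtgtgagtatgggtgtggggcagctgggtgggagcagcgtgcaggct

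The cyclic AMP response element in the Areg promoter lay 61 to 54 bases before the start, and its TATAAA lay 31 to 26 bases before the start, so that the 2 did not overlap. The first set of letters was present in 508 of 32851 RefSeq promoters of this length (1.55%) and the second in 4063 (12.4%). Hbegf, on chromosome 18, was left out of the search among the members. Of the others, 7 were matched, with 8 promoters (Areg, Egf, Epgn, Btc, Tgfa, Egfr and Erbb2). Areg was the only one of the 7 with the cyclic AMP response element, and Areg and Epgn had TATAAA. These matches describe the letters and do not show that a factor binds them.

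Areg was counted 620 and 1116 times in the tumors of the homozygous KO mouse G174, against 66 and 37 times in those of its control G184. This was 9.45 and 16.8 CPM in G174 and 0.931 and 0.575 CPM in G184. Both KO tumors were above both control tumors, and the lower KO tumor was far above the higher control tumor. The log2 fold change was 4.12 ± 0.48 (SE, adjusted p = 0.00581, edgeR). Areg was the single member called higher, where 5.44% of all genes tested were called higher and 7.70% lower, and no member was called lower. DESeq2 called 3 members higher in this comparison, Areg, Egf and Tgfa, where it called 10.5% of all genes with an adjusted p higher and 11.8% lower.

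In the heterozygous pair Areg was at 4.23 and 4.60 CPM (222 and 287 counts) in the KO mouse G164 and at 8.11 and 16.4 CPM (532 and 915 counts) in its control G144. Both KO tumors lay below both control tumors, but the 2 control tumors differed 2.02-fold between themselves. The log2 fold change was -1.47 ± 0.42 (SE) and did not pass the threshold by edgeR (adjusted p = 0.094), and it passed by DESeq2 (adjusted p = 0.00647). By edgeR 0 of the 10 members were called, where 2.72% of all genes were called higher and 1.29% lower, and at an unadjusted p under 0.05 there were 2, Areg and Tgfa, both lower, where 12.4% of all genes were lower and 12.8% higher. DESeq2 called 1 lower, Areg, where it called 7.65% of all genes with an adjusted p lower and 7.38% higher, so that these counts lay near the share of all genes. The difference between the homozygous and the heterozygous log2 fold change of Areg was 5.59 ± 0.63 (SE, adjusted p = 0.00271, edgeR). Areg and Tgfa were the 2 members called higher in that difference and none was called lower, where 12.0% of all genes were called higher and 13.1% lower.

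The mice without Cre differed in Areg as much as the homozygous pair. Against G144, the Areg level in G184 had a log2 fold change of -4.02 ± 0.47 (SE, adjusted p = 0.0058, edgeR), and Areg was again the single member called, where 6.17% of all genes were called higher and 6.40% lower. Without tumor 9 of G184 this call was lost, at -3.70 (adjusted p = 0.0514). The homozygous KO mouse set against the other mouse without Cre, G144, gave a log2 fold change of 0.10 ± 0.41 (SE, adjusted p = 0.941). The heterozygous KO mouse set against G184 gave 2.55 ± 0.45 (SE, adjusted p = 0.102), which turns the direction round. These 2 crossed settings were added after the values were seen. With G144 as the control mouse, 20 genes were called over the whole table in place of 2917, and 0 members.

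In order of its mean level per mouse, Areg was highest in G174 (13.1 ± 5.20 CPM, SD of 2 tumors) and next in G144 (12.3 ± 5.87 CPM), and the tumors of these younger mice overlapped. It was lower in G164 (4.42 ± 0.264 CPM) and lowest in G184 (0.753 ± 0.252 CPM), the older mice, and neither of these overlapped with any other mouse. The 2 sequencing runs of a tumor gave near values at these low counts, with 38 and 28 Areg counts in tumor 6 of G184 and 21 and 16 in tumor 9. On the forward strand Areg had 25 counts over all tumors, against 3795 on the reverse strand, and no annotated gene overlaps it. When the counts were summed per mouse and the 2 Cre+ mice were set against the 2 Cre- mice, Areg had a log2 fold change of 0.48 ± 1.29 (SE, adjusted p = 1), with the error taken between mice of the same Cre state. In that comparison edgeR called 0 members and 0% of all genes (0 of 23281), with 0 members and 191 genes at an unadjusted p under 0.05, and DESeq2 called 0 members and 22 genes. The deleted gene Abi1 was not called by edgeR there either (log2 fold change -1.705 ± 0.973, SE), on 2 residual degrees of freedom. The 0 calls among the members thus do not show that Cre had no effect.

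**Figure D1:**
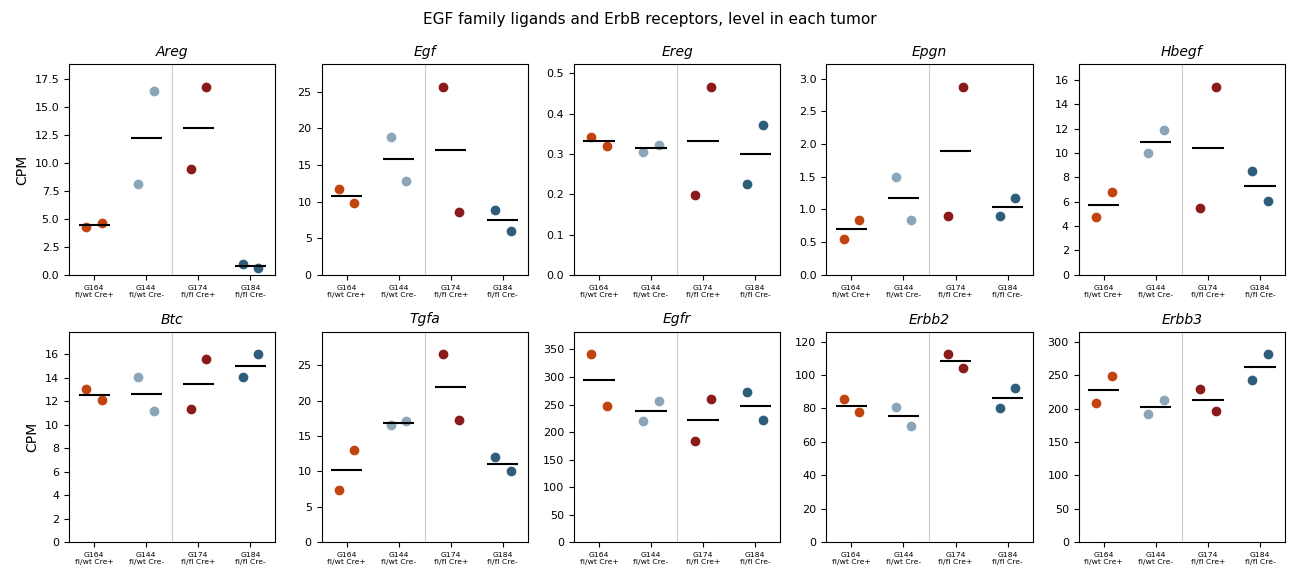
Level of each member in CPM (vertical axis, from 0) in the 2 tumors of each mouse (points), with the mean of the mouse as a bar, for the heterozygous KO and its control on the left of the grey line and the homozygous KO and its control on the right. Areg is at 4.23 to 16.8 CPM in G164, G144 and G174 and at 0.575 to 0.931 CPM in G184, while Btc stays between 11.2 and 16.01 CPM in all 8 tumors.

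Among the other ligands, Tgfa encodes transforming growth factor alpha, a ligand of Egfr. Tgfa was at 26.5 and 17.3 CPM in G174, against 12.0 and 10.1 CPM in G184. It was at 7.39 and 13.04 CPM in G164, against 16.5 and 17.1 CPM in G144. Both pairs were free of overlap, in opposite directions. The log2 fold change was 0.99 ± 0.30 (SE, adjusted p = 0.0742, edgeR; 0.0123 by DESeq2) in homozygotes and -0.72 ± 0.30 (adjusted p = 0.198) in heterozygotes, so that neither passed by edgeR. The difference between them was 1.70 ± 0.43 (adjusted p = 0.0298), and leaving out 1 tumor at a time took it to 1.37 to 2.17, with an adjusted p of up to 0.0983. That call was lost when either tumor of G144, either tumor of G184, tumor 3 of G164 or tumor 1 of G174 was left out.

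Egf, the ligand that gave the family its name, was at 25.7 and 8.55 CPM in G174, against 8.83 and 6.05 CPM in G184. The homozygous KO tumors differed 3.00-fold between themselves and 1 of them overlapped with the control tumors. The log2 fold change was 1.20 ± 0.49 (SE, adjusted p = 0.145, edgeR; 0.0432 by DESeq2). In G164 Egf was at 11.7 and 9.75 CPM, against 18.9 and 12.8 CPM in G144, with a log2 fold change of -0.56 ± 0.48 (adjusted p = 0.51). Egf is overlapped by 3 genes on the other strand, and its unstranded count was 0.83 times its reverse-strand count.

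Hbegf, at chr18:36504927-36515805 (-), encodes the heparin-binding ligand of Egfr and Erbb4. Its level was 5.47 and 15.4 CPM in G174, against 8.52 and 6.09 CPM in G184, and the KO tumors lay on either side of the control tumors. It was 4.71 and 6.82 CPM in G164, against 10.01 and 11.9 CPM in G144, without overlap. Neither comparison passed. The log2 fold change was 0.52 ± 0.46 (SE, adjusted p = 0.479, edgeR) in homozygotes, with -0.92 ± 0.47 (adjusted p = 0.266) in heterozygotes.

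Epgn, which encodes epigen, and Ereg, which encodes epiregulin, are the nearest neighbours of Areg in the family cluster and were scarce. Epgn had 29 to 191 counts per tumor, at 0.899 and 2.88 CPM in G174, against 0.903 and 1.18 CPM in G184, and at 0.553 and 0.834 CPM in G164, against 1.49 and 0.843 CPM in G144. Ereg had 13 to 31 counts per tumor, or 0.198 to 0.467 CPM, and all 4 mice overlapped. Its log2 fold change was 0.16 ± 0.47 (SE, adjusted p = 0.848, edgeR) in homozygotes and 0.08 ± 0.48 (adjusted p = 0.938) in heterozygotes, and no difference was detectable at this depth. For Epgn it was 0.86 ± 0.56 (adjusted p = 0.336) in homozygotes, with -0.75 ± 0.58 (adjusted p = 0.46) in heterozygotes.

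Btc, which encodes betacellulin and closes the cluster on the opposite strand, varied least among the ligands. It ran from 11.2 to 16.01 CPM over the 8 tumors, 1.43-fold from lowest to highest, where Areg ran over 29.2-fold. Its log2 fold change was -0.16 ± 0.20 (SE, adjusted p = 0.622, edgeR) in homozygotes and -0.0083 ± 0.20 (adjusted p = 0.985) in heterozygotes. Of the 6 other protein-coding genes within 250 kb of the 4 cluster ligands, 5 passed the filter. In homozygotes 1 of the 5 passed the test, Parm1, which fell (log2 fold change -1.30 ± 0.21, adjusted p = 0.0138), and in heterozygotes 0 of 5 did.

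Set beside genes of like abundance, the spread of Areg was wide. The SD of log2 CPM over the 8 tumors was 1.81 for Areg, where the median was 0.32 for the 3290 genes with a mean CPM within 2-fold of its own, and 98.4% of these had a smaller SD. The same share was 88.8% for Egf, 85.3% for Tgfa, 80.0% for Hbegf and 33.1% for Btc. Among the receptors it was 73.3% for Egfr, 63.7% for Erbb2 and 50.1% for Erbb3.

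The makeup of the ligand pool was described as the share of Areg in the summed level of the 7 ligands, in CPM per kb of exon. Areg made up 42.4% and 54.0% of the pool in the tumors of G174, against 8.68% and 5.84% in those of G184. It made up 35.2% and 33.5% in G164, against 39.3% and 59.4% in G144. Areg was thus the most abundant ligand per kb in all 6 tumors of G164, G144 and G174. In G184, Btc took that place, with 35.3% and 43.7% of the pool.

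The other 6 ligands together changed less than Areg. Their summed level was 10.6 and 11.8 CPM per kb in G174, against 8.07 and 7.64 in G184, a log2 ratio of means of 0.51. In G164 it was 6.42 and 7.51 CPM per kb, against 10.3 and 9.24 in G144, a log2 ratio of means of -0.49. The log2 ratio of Areg to the other ligands averaged -0.10 ± 0.48 (SD, n = 2 tumors) in G174 and -3.70 ± 0.44 in G184. It averaged -0.93 ± 0.07 in G164 and -0.04 ± 0.83 in G144. The KO tumors differed from their controls by 3.60 in homozygotes and by -0.89 in heterozygotes, without overlap in either pair (exact permutation test, two-sided, p = 0.333 in both, which is the smallest p that 2 tumors against 2 allow).

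**Figure D2:**
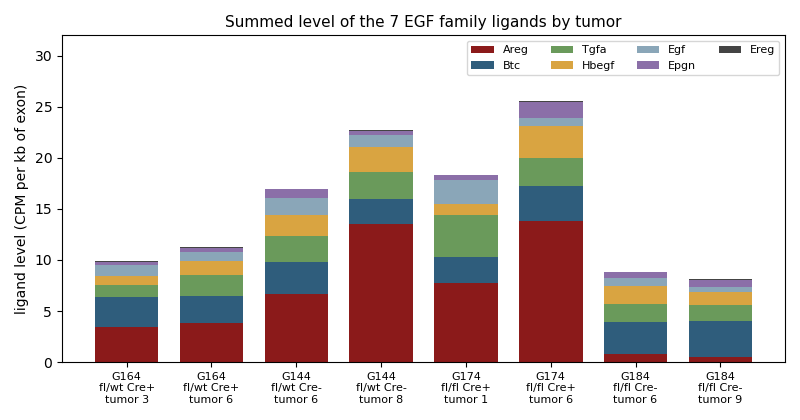
Level of the 7 ligands in CPM per kb of exon (vertical axis, from 0), stacked, in each of the 8 tumors, with the KO tumors left of their controls in each genotype. The Areg part of the bar is 7.77 and 13.8 CPM per kb in the tumors of G174 and 0.766 and 0.473 in those of G184, and the summed level of all 7 ligands is 8.11 to 25.6.

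Per kb of exon, each receptor was above every ligand other than Areg in all 8 tumors, and Areg reached 13.8 CPM per kb, within the range of Erbb2. In tumor 8 of G144 Areg (13.5 CPM per kb) stood level with Erbb2 (13.3). Erbb3, which binds neuregulins and has a weak kinase, had the highest level per kb (32.0 to 46.8 CPM per kb), followed by Egfr (16.2 to 30.1) and Erbb2 (13.3 to 21.6). The ranges of Erbb3 and Egfr did not overlap, and those of Egfr and Erbb2 did. Egfr was at 183 and 261 CPM in G174, against 273 and 223 CPM in G184, and at 341 and 247 CPM in G164, against 220 and 257 CPM in G144. Its groups overlapped in both comparisons, and its log2 fold change was -0.16 ± 0.22 (SE, adjusted p = 0.664, edgeR) in homozygotes, with 0.30 ± 0.22 (adjusted p = 0.443) in heterozygotes. Erbb2 was at 112 and 104 CPM in G174, against 80.5 and 92.4 CPM in G184, without overlap, and its log2 fold change of 0.33 ± 0.12 did not pass (adjusted p = 0.119). Erbb3 was at 230 and 196 CPM in G174, against 243 and 281 CPM in G184, also without overlap, at -0.30 ± 0.14 (adjusted p = 0.19). In heterozygotes Erbb2 (0.12 ± 0.12, adjusted p = 0.58) and Erbb3 (0.17 ± 0.14, adjusted p = 0.483) overlapped with their controls.

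Freedom from overlap between 2 tumors and 2 others was common over the whole table. In homozygotes 3 of the 10 members were higher in both KO tumors (Areg, Tgfa and Erbb2) and 1 was lower (Erbb3), where 29.9% of all genes were higher and 29.9% lower. In heterozygotes 0 members were higher and 5 were lower (Areg, Egf, Epgn, Hbegf and Tgfa), where 31.3% of all genes were higher and 28.8% lower. Between the control mice, 1 member was higher in both tumors of G184 than in both of G144 (Erbb3) and 4 were lower (Areg, Egf, Hbegf and Tgfa), where 31.1% and 30.3% of all genes were. The median log2 fold change of the 7 ligands was 0.86 in homozygotes and -0.72 in heterozygotes, where the medians of all genes were -0.0012 and 0.015.

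**Figure D3:**
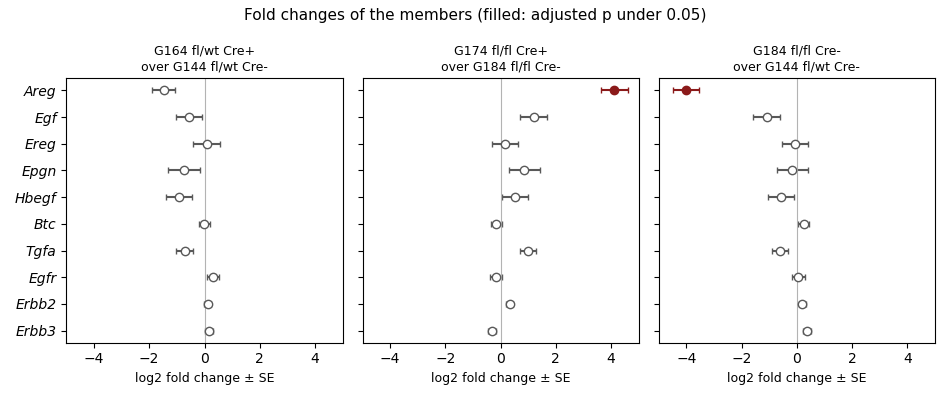
Log2 fold change of each member with its standard error (horizontal axis) in heterozygotes, in homozygotes and between the control mice, and filled points mark an adjusted p under the threshold of 0.05 (edgeR). Areg is the filled point in homozygotes (4.12) and between the control mice (-4.02), and no point is filled in heterozygotes.

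Of the other ErbB genes listed (Erbb4, Nrg1, Nrg3 and Nrg4), 3 passed the filter and 1 was called lower in homozygotes, Nrg1, which encodes a ligand of Erbb3 and Erbb4. Nrg1 was at 3.92 and 9.74 CPM in G174, against 29.4 and 26.8 CPM in G184, without overlap. Its log2 fold change was -2.04 ± 0.49 (SE, adjusted p = 0.0394, edgeR) in homozygotes and 0.30 ± 0.47 (adjusted p = 0.731) in heterozygotes, where it was at 29.2 and 29.8 CPM in G164 and at 14.6 and 33.4 CPM in G144. Nrg1 and Areg thus moved in opposite directions in homozygotes. Of 10 genes of ligand shedding and trafficking, which include the sheddases Adam17 and Adam10, 0 were called in either comparison by edgeR. The most abundant of them by CPM, Cd9, a tetraspanin, had a log2 fold change of -0.24 ± 0.18 (adjusted p = 0.404) in homozygotes, with -0.21 ± 0.18 (adjusted p = 0.522) in heterozygotes.

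Downstream of the receptors, 2 of 17 feedback inhibitors were called, and both were called in both comparisons, in opposite directions. For this list and those that follow, the shares of all genes called were 5.44% higher and 7.70% lower in homozygotes and 2.72% higher and 1.29% lower in heterozygotes, so that 1 to 3 called genes in a list of 10 to 17 lie near the share of all genes in homozygotes and describe those genes only. Dusp6, a phosphatase of the ERK kinases, was at 226 and 271 CPM in G174, against 163 and 157 CPM in G184, and at 178 and 151 CPM in G164, against 292 and 279 CPM in G144. It rose by 0.64 ± 0.13 (log2, SE, adjusted p = 0.0243, edgeR) in homozygotes, and the heterozygous log2 fold change was -0.80 ± 0.13 (adjusted p = 0.0309). Errfi1, an inhibitor of the Egfr kinase, was at 304 and 274 CPM in G174, against 190 and 159 CPM in G184, and at 192 and 183.5 CPM in G164, against 335 and 296 CPM in G144. It rose by 0.73 ± 0.13 (log2, adjusted p = 0.0162) in homozygotes, and the heterozygous value was -0.75 ± 0.13 (adjusted p = 0.0328). In both genes the tumors of the older mice G164 and G184 lay together, below those of G174 and G144. Both were also called between the control mice, lower in G184 than in G144. The log2 fold changes there were -0.84 ± 0.13 (adjusted p = 0.0121, edgeR) for Dusp6 and -0.86 ± 0.13 (adjusted p = 0.0113) for Errfi1. Dusp6 in G174 lay below G144, and Errfi1 in G174 overlapped with G144. The part of the control mouse in these differences was not tested. The other 15 inhibitors, among them Spry and Spred genes, passed in neither comparison, and the list medians were 0.06 and -0.07. In the difference between the comparisons 3 of the 17 were called higher and 0 lower, where 12.0% and 13.1% of all genes were. Between the control mice 3 of the 17 were called lower in G184 and 0 higher, where 6.40% and 6.17% of all genes were.

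Of 12 early response genes, 1 was called, Etv5, an ETS transcription factor induced by ERK signaling. It was at 291 and 213 CPM in G174, against 103 and 99.4 CPM in G184, and rose by 1.32 ± 0.16 (log2, SE, adjusted p = 0.00613, edgeR). In heterozygotes it was at 117 and 103 CPM in G164, against 171 and 185 CPM in G144, and did not pass (-0.70 ± 0.16, adjusted p = 0.0576). Etv5 was also called between the control mice, lower in G184 than in G144 (-0.82 ± 0.16, adjusted p = 0.0227, edgeR). Its level in G174 lay above that in G144. The list median was -0.47 in homozygotes and -0.28 in heterozygotes, so that Etv5 did not stand for the list.

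Of 17 adaptors and relay genes, 1 was called higher and 2 lower in homozygotes and 0 in heterozygotes. Gab2, a docking adaptor, was at 17.0 and 17.0 CPM in G174, against 53.6 and 45.9 CPM in G184, and fell by 1.55 on the log2 scale (SE 0.23, adjusted p = 0.0108, edgeR). Sos2, an exchange factor for Ras, fell by 0.58 (SE 0.11, adjusted p = 0.0221). Grb2, an adaptor that links receptors to Sos proteins, was at 74.5 and 76.3 CPM in G174, against 58.01 and 58.1 CPM in G184, and rose by 0.38 (SE 0.091, adjusted p = 0.0395). Gab2 and Sos2 were also called between the control mice, higher in G184 than in G144. Their log2 fold changes there were 0.89 (SE 0.23, adjusted p = 0.0487, edgeR) and 0.48 (SE 0.11, adjusted p = 0.0375). Grb2 did not pass there (-0.32, SE 0.091, adjusted p = 0.0637). In G144 Grb2 was at 69.6 and 75.05 CPM, which overlapped with G174, and Gab2 was at 19.96 and 33.8 CPM, above G174. The part of the control mouse in these differences was not tested. The list median was -0.06, beside -0.0012 for all genes.

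**Figure D4:**
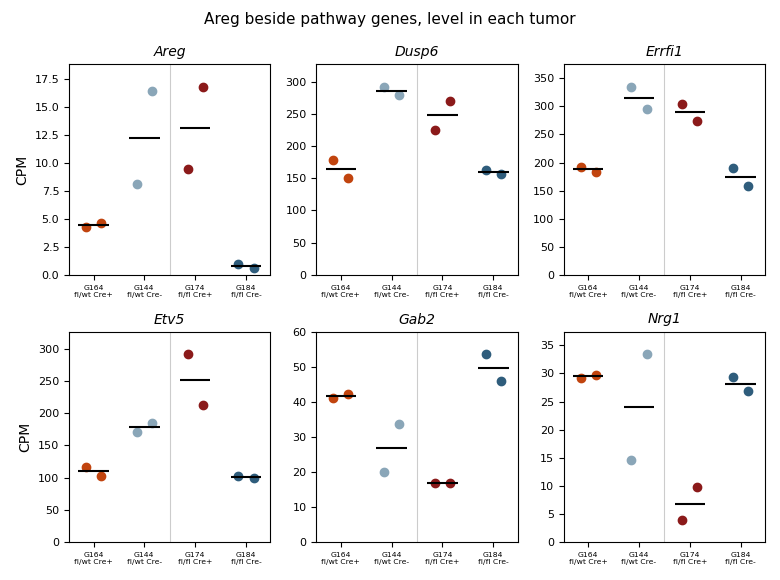
Level in CPM (vertical axis, from 0) of Areg, of the feedback inhibitors Dusp6 and Errfi1, of Etv5, of the adaptor Gab2 and of the ligand gene Nrg1 in the 2 tumors of each mouse (points), with the mean of the mouse as a bar. Dusp6, Errfi1 and Etv5 are lower in G164 and G184 than in G144 and G174, and Nrg1 is lowest in G174 (3.92 and 9.74 CPM).

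Areg is an estrogen target in the mammary gland, and genes of estrogen response and hormone sensing were listed for that reason. Of 10, 0 were called higher and 2 lower in homozygotes, and 0 were called in heterozygotes. Foxa1, which opens chromatin for the estrogen receptor, was at 7.25 and 7.21 CPM in G174, against 14.8 and 27.0 CPM in G184, and fell by 1.53 on the log2 scale (SE 0.31, adjusted p = 0.0249, edgeR). Stc2, an estrogen-responsive secreted protein gene, fell by 1.41 (SE 0.32, adjusted p = 0.0325). Esr1, the estrogen receptor itself, had -0.78 ± 0.37 (adjusted p = 0.191). The list median was -0.64, with a sign opposite to that of Areg in homozygotes. Between the control mice, 1 of the 10 was called lower in G184, as Areg was, and 0 higher, with a list median of 0.11. Areg is also a known target of YAP in epithelium, and of 10 other YAP and TAZ targets 1, the receptor kinase Axl, was called, higher in heterozygotes (1.06 ± 0.19, adjusted p = 0.0389) and lower in homozygotes (-1.52 ± 0.20, adjusted p = 0.00716), with signs opposite to those of Areg. Ccn1, a secreted matrix protein gene and YAP target, had the signs of Areg and did not pass, with 0.58 ± 0.29 (adjusted p = 0.215) in homozygotes and -0.51 ± 0.29 (adjusted p = 0.316) in heterozygotes. Ankrd1, another such target, likewise had 1.45 ± 1.05 (adjusted p = 0.383) and -0.063 ± 1.04 (adjusted p = 0.978). Ccn2, the most abundant of the 10 by CPM, had the signs of Axl and did not pass. Its values were -0.79 ± 0.34 (adjusted p = 0.166) in homozygotes and 0.15 ± 0.34 (adjusted p = 0.822) in heterozygotes. Axl was also called between the control mice, higher in G184 than in G144 (1.395 ± 0.196, adjusted p = 0.0097, edgeR). The median of the 10 was -0.31 in homozygotes and 0.18 in heterozygotes.

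The protein-coding genes most like Areg over the 8 tumors, among 11440 with a mean of at least 5 CPM, were H4f16 (Pearson r of log2 CPM 0.99), Tfap4 (0.99), Rcor2 (0.97), Fam135a (0.96), Chaf1b (0.96), 1110059E24Rik (0.96), Mcm4 (0.96) and Pgm1 (0.96). The 8 points come in pairs from 4 mice, so that r follows mainly the order of the mice, and 143 genes had r of at least 0.9. H4f16 is a histone H4 gene and shares sequence with other copies, so its counts are uncertain. Mcm4, a subunit of the replicative helicase, was at 80.7 and 86.4 CPM in G174, against 45.8 and 40.0 CPM in G184, and at 61.7 and 56.4 CPM in G164, against 88.7 and 87.3 CPM in G144. Chaf1b, a subunit of the chromatin assembly factor, was at 21.7 and 26.3 CPM in G174, against 13.1 and 9.62 CPM in G184. Among the members, r with Areg was 0.60 for Tgfa, 0.58 for Egf, 0.48 for Hbegf, -0.47 for Btc and -0.79 for Erbb3.

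Marker levels of several other cell types ran opposite to Areg, with list medians that were negative in homozygotes and positive in heterozygotes. The summed level of 8 T cell markers was 8.47 and 9.11 CPM in G174, against 25.7 and 28.2 CPM in G184, and 26.6 and 32.8 CPM in G164, against 12.3 and 13.8 CPM in G144. All 8 were called lower in homozygotes and 3 of 8 higher in heterozygotes, and none was at 0 in any tumor. The summed level of 8 macrophage markers was 319 to 353 CPM in G174, against 531 to 711 CPM in G184, and 552 to 558 CPM in G164, against 294 to 400 CPM in G144, with 5 of 8 called lower in homozygotes and 1 of 8 higher in heterozygotes. The 7 B and plasma cell markers summed to 2.79 and 6.37 CPM in G174, against 29.2 and 32.5 CPM in G184, and to 213 and 324 CPM in G164, against 8.93 and 9.68 CPM in G144. Of these, 1 was called lower in homozygotes and 3 higher in heterozygotes, and none was at 0. These immune sums were free of overlap in both pairs. The 6 neutrophil markers summed to 8.21 to 8.84 CPM in G174, against 15.4 to 29.9 CPM in G184, and to 21.9 to 79.7 CPM in G164, against 8.14 to 8.48 CPM in G144. At most 1 of the 6 was at 0 in a tumor, and of the 5 that passed the filter 1 was called lower in homozygotes and 2 higher in heterozygotes. Between the control mice, 4 T cell, 6 macrophage, 1 B and plasma cell and 1 neutrophil marker were called higher in G184, and 0 lower. Of all genes, 6.17% were called higher there and 6.40% lower. The T cell and B and plasma cell sums of G174 lay below those of G144. The macrophage sums of G174 lay within those of G144, and the neutrophil sums overlapped.

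The list medians of adipocyte, basal, squamous, fibroblast and endothelial markers had the same signs. The 6 adipocyte markers summed to 12.9 to 24.01 CPM in G174, against 40.95 to 57.5 CPM in G184, and to 37.4 to 95.2 CPM in G164, against 19.3 to 26.2 CPM in G144, with 2 called lower in homozygotes, 1 higher in heterozygotes and list medians of -2.31 and 1.65. The 8 basal and myoepithelial markers summed to 153 to 463 CPM in G174, against 353 to 1108 CPM in G184, which overlapped, and to 875 to 1021 CPM in G164, against 395 to 469.9 CPM in G144. The basal list medians were -1.56 in homozygotes and 1.00 in heterozygotes, and 0 of the 8 were called in either. Krt17 went against the list in homozygotes (1.99 ± 0.92, adjusted p = 0.187, edgeR). The squamous list of 12 genes stood apart in 1 mouse, with 128 to 183.9 CPM in G164, against 10.3 to 17.0 CPM in G144, and 10.7 to 13.2 CPM in G174, against 14.2 to 22.9 CPM in G184. No squamous marker was at 0 in G164, and 2 to 4 of the 12 were in each tumor of the other mice. Of the 11 that passed the filter, 3 were called higher in heterozygotes and 0 were called in homozygotes. The squamous list was mixed in homozygotes, with a median of -0.51 and positive values for Ivl, Lor, Dsg3, Sprr1a and Krt10. The 8 fibroblast markers summed to 1289 to 2292 CPM in G174, against 1901 to 2342 CPM in G184, and to 3142 to 3551 CPM in G164, against 1658 to 1925 CPM in G144. Their homozygous sums overlapped, with 1 marker called lower in homozygotes and 2 higher in heterozygotes. The 6 endothelial markers summed to 93.2 to 116 CPM in G174, against 151 CPM in both tumors of G184, and to 119 to 141 CPM in G164, against 108 to 138 CPM in G144. Their heterozygous sums overlapped, with 1 marker called lower in homozygotes and 0 called in heterozygotes. Between the control mice, 1 adipocyte and 2 fibroblast markers were called higher in G184, and 0 basal, squamous or endothelial markers were called. The summed luminal markers were 4346 to 4535 CPM in G174, against 4398 to 5107 CPM in G184, and 4337 to 4504 CPM in G164, against 4352 to 4832 CPM in G144. Within this list, Kit was called lower (-1.30 ± 0.23, adjusted p = 0.0177, edgeR) and Epcam higher (0.435 ± 0.11, adjusted p = 0.0455) in homozygotes. In heterozygotes 0 were called. Kit was also called higher in G184 than in G144 (1.40 ± 0.23, adjusted p = 0.0149). The part of these cell types in the Areg result was not tested, and in these bulk tumors fewer cells that make Areg and less Areg RNA per cell cannot be told apart.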

How the data were processed

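The authors called bases with bcl2fastq, aligned reads to GRCm38/mm10 with STAR and deposited raw counts per gene, unstranded and for each strand, of each lane. They also deposited counts summed per mouse, which equal the unstranded sums at all 55381 genes. No version of these tools is named in the sources used.

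Counts on the reverse strand were added up for each tumor over its lanes and runs (64 files), since the forward strand held 4.76% to 6.80% of stranded counts. Reads counted in no gene (28.3% to 34.9% unassigned to a feature) stayed out of library sizes. Exon lengths and positions came from GENCODE M21. Genes were filtered with filterByExpr, scaled by TMM and tested with edgeR 4.0.16 (R 4.3.3) over all 8 tumors, with 4 residual degrees of freedom and a threshold of 0.05. The SE given with an edgeR log2 fold change was derived from the test. It is the absolute log2 fold change divided by the square root of the quasi-likelihood F statistic. DESeq2 1.42.0 was an alternative. The homozygous comparison was also run on counts simulated with the spread between tumors of a mouse. The simulated mice did not differ apart from genes set to change in G174, so this says nothing about differences between mice.

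The members and lists were chosen with earlier results of these data known. Named are the members, Abi1, up to 3 called genes per list by size of change (the most abundant where none passed), the 8 genes most like Areg, called neighbours within 250 kb of the chromosome 5 ligands and, chosen after their values were seen, Esr1, Ccn1, Ccn2, Ankrd1 and single cell type markers. Alternatives were another scaling, no filter, unstranded counts, each run alone, DESeq2, only the mice compared, other lengths and leaving out each tumor or mouse. Promoters came from RefSeq (GRCm38.p6). Some genes are not analysed here.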

Additional observations from a re-analysis of the deposited data

Results flagged for a closer look

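The heterozygous and the homozygous log2 fold change differed by the edgeR test of the difference for 2 of the 10 members, where 12.0% of all genes were called higher and 13.1% lower in that difference. It also did for 18 other named genes, which were named for being called in a comparison or for following Areg over the same tumors, so that their number is fixed largely by that choice and shows nothing further. The difference, homozygous minus heterozygous, was 5.59 for Areg and 1.70 for Tgfa. It was -3.05 for Abi1, the targeted gene.

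Among pathway genes it was 1.43 for Dusp6, 1.48 for Errfi1, 2.01 for Etv5 and 0.63 for Grb2. It was -2.34 for Nrg1, -2.19 for Gab2, -0.85 for Sos2, -1.58 for Foxa1, -2.17 for Stc2 and -2.58 for Axl. Among the genes most like Areg it was 2.32 for H4f16, 0.88 for Tfap4, 2.76 for Rcor2, 1.73 for Chaf1b, 1.54 for Mcm4 and 0.88 for Pgm1. For Parm1, the neighbour of the ligand cluster, it was -1.58.

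The log2 ratio of Areg to the other ligands was lower in every KO tumor than in every control tumor in heterozygotes and higher in homozygotes. The 2 effects were 4.49 apart, and this difference was not tested.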

How the results depend on the processing

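The Areg call in homozygotes kept its direction and its side of the threshold under each alternative run on it (another scaling, no filter, unstranded counts, each run alone, DESeq2, only the mice compared and leaving out each tumor), with 3.67 to 4.54 when 1 tumor was left out (adjusted p up to 0.0418, edgeR), as did the difference between comparisons (4.99 to 6.04) under the same ones except only the mice compared. In heterozygotes Areg passed by DESeq2 (-1.47) and with no filter (-1.47), and ran from -1.91 to -0.88 without 1 tumor. The added crossed control mice took Areg to 0.10 in homozygotes and 2.55 in heterozygotes. Between the control mice it ran from -4.44 to -3.42 without 1 tumor. In the Cre comparison it ran from -0.52 to 3.52 when 1 mouse was left out. The causes were not tested.

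Genes called by DESeq2 numbered 2817 in heterozygotes (890 by edgeR), 4577 in homozygotes (2917), 4471 between control mice (2787) and 22 in the Cre comparison (0). With no filter they were 2614, 4575 and, in the Cre comparison, 4. With only the mice compared they were 1394 in heterozygotes, 980 in homozygotes and 1534 between control mice, and with the other control mouse 94 in heterozygotes and 20 in homozygotes. Without 1 tumor they ran from 16 to 1087 in heterozygotes, 532 to 2442 in homozygotes, 2079 to 4817 in the difference (5579 with all) and 205 to 3164 between control mice, and without 1 mouse from 0 to 4. Members called were 1 in heterozygotes and 3 in homozygotes by DESeq2 and with no filter, 4 in the difference and 2 between control mice with no filter, and 0 in homozygotes with G144 as control. Without 1 tumor they ran from 1 to 2 in homozygotes, 1 to 3 in the difference and 0 to 2 between control mice.

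Areg's mean share of the ligand pool, 48.2% in G174, 7.26% in G184, 34.4% in G164 and 49.3% in G144, was 16.8%, 1.74%, 9.89% and 17.5% with no division by length and 38.7% in G174 and 26.5% in G164 by longest transcript.

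Member values that did not pass the threshold changed sign as follows. With the other control mouse, in heterozygotes, Egf had 0.53, Erbb2 -0.081 and Erbb3 -0.20, and in homozygotes Btc had 0.092, Erbb3 0.071 and Hbegf -0.066. Btc in heterozygotes had 0.067 by library size and 0.11 in the second run, and 0.011 in the Cre comparison in the second run. Ereg, the scarcest ligand, had in the first run -0.28 in homozygotes, -1.19 in the difference and 0.78 between control mice, and Epgn had 0.061 there. Ereg had -0.75 in heterozygotes and -0.022 in the Cre comparison in the second run, -0.032 in homozygotes and -0.10 in the difference by unstranded counts, and -0.016 in the difference by library size. Leaving out 1 tumor or mouse turned 28 other values. In heterozygotes Btc ran from -0.17 to 0.15. In homozygotes Btc ran from -0.38 to 0.053, Egfr from -0.41 to 0.075, Epgn from -0.19 to 1.47, Ereg from -0.56 to 0.64 and Hbegf from -0.39 to 1.08. In the difference Btc ran from -0.36 to 0.064 and Ereg from -0.63 to 0.57. Between control mice Egfr ran from -0.11 to 0.21, Epgn from -0.52 to 0.30 and Ereg from -0.45 to 0.24. In the Cre comparison Btc ran from -0.21 to 0.036, Egf from -0.20 to 0.88, Egfr from -0.14 to 0.25, Epgn from -0.66 to 0.76, Erbb3 from -0.24 to 0.14, Hbegf from -0.64 to 0.19 and Tgfa from -0.42 to 0.65.

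No paired analysis was possible because the mice compared share at most 1 tumor number, and that number names a tumor site in different mice.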
